A study of Mus musculus with 2 samples.

Results

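The connective tissue of the mouse liver was examined on 118 of 4472 spots, 51 of 2309 in an AEG-1-WT section and 67 of 2163 in an AEG-1-C75S section. A spot is a small area of the slide that lies under several cells, so its counts are those of a region and not of a cell type. The spots were chosen by measured values of these libraries. Among spots with at most 50000 unique molecular identifiers (UMIs), the 5% with the highest share of UMIs from Mgp, Dpt, Col1a1, Col1a2 and Col3a1 were taken in each section, and those with 6 or more UMIs of the bile duct genes Spp1, Epcam, Krt7 and Krt19 were dropped. This left out 64 of 115 spots in the AEG-1-WT section and 41 of 108 in the AEG-1-C75S section. Levels of these 9 genes are therefore a description, and all other genes were read from the same spots, so no value below is a test.

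RNA of formalin-fixed, paraffin-embedded liver was counted on barcoded 10x Visium spots, after ligation of probe pairs on the transcript. The livers came from female littermates aged 8 weeks that were naive and received no treatment, and the sections were 5 μm thick. AEG-1 (astrocyte elevated gene-1, encoded by Mtdh) is a membrane-anchored scaffold protein. The AEG-1-C75S mouse carries, in every cell, a knock-in made with CRISPR/Cas9 that puts a serine in place of the cysteine that is palmitoylated, and the AEG-1-WT mouse carries the unedited gene. There was 1 section from 1 mouse per genotype, so animal, section and genotype cannot be told apart, and p-values are not given. In all, 42618523 UMIs were counted on 2316 spots of the AEG-1-WT section, with 7 spots above the limit of 50000. For AEG-1-C75S the total was 41892649 UMIs on 2167 spots, with 4 above the limit. The sections shared 1896 barcodes, which mark positions on a slide and not cells, and 1 barcode was a connective tissue spot in both. Spot coordinates were not used, so it is not known which of the spots lie side by side.

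Most of the liver is parenchyma, and its connective tissue is confined to the portal tracts, the walls of the larger hepatic veins and the thin capsule of Glisson with its mesothelium. Portal tracts hold a portal vein, hepatic arterioles with a coat of smooth muscle, bile ducts, lymphatics and nerves in a collagen matrix made by portal fibroblasts. Central veins have a thin wall whose endothelium secretes Wnt ligands and R-spondins that maintain the program of the pericentral hepatocytes. Elastic fibers, type VI collagen and small leucine-rich proteoglycans are parts of the matrix in both places.

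The choice was much firmer in the AEG-1-WT section than in the AEG-1-C75S section. UMIs of the 5 choosing genes per spot ran from 1 through a median of 14 to 96 in the AEG-1-WT section, and from 2 through a median of 4 to 24 in the AEG-1-C75S section. At most 4 such UMIs decided the choice of 1 AEG-1-WT spot and of 35 AEG-1-C75S spots. Most AEG-1-C75S spots thus rest on a handful of molecules, and several sit at the edge of what the threshold can separate. The last AEG-1-WT connective tissue spots inside the threshold had 417 and 413 UMIs of the choosing genes per 1000000 UMIs and the first outside had 402 and 402. The AEG-1-C75S values were 322 and 318 inside, and 313 and 310 outside, and the very last spot inside, at 315, was one dropped for bile duct UMIs. Summed over the spots, the choosing genes reached 1220 counts per 1000000 UMIs (CPM) against 152 CPM elsewhere in the AEG-1-WT section, and 460 CPM against 81.6 CPM in the AEG-1-C75S section. The other spots are all remaining spots within the limit, 2258 and 2096, and include the dropped ones. No bile duct UMI at all was found on 23 of the AEG-1-WT spots and 29 of the AEG-1-C75S spots, while 1 and 7 spots had the highest number allowed, 5. The 4 bile duct genes used for dropping came to 69.2 CPM against 121 CPM in the other AEG-1-WT spots. They came to 111 CPM against 87.2 CPM for AEG-1-C75S, and to 224 CPM on its portal side as defined below. The AEG-1-C75S spots were thus not free of bile duct transcripts.

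**Figure D1:**
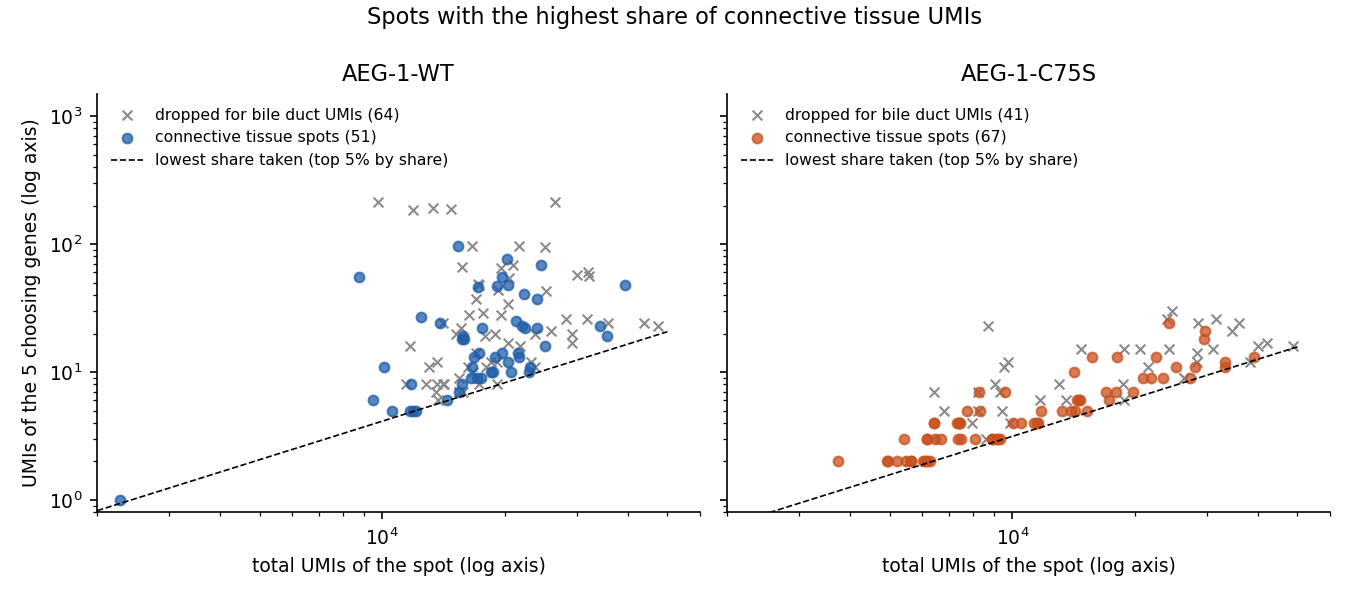
UMIs of the 5 choosing genes (log axis) against total UMIs (log axis) for each spot in the top 5% of the AEG-1-WT section (left) and the AEG-1-C75S section (right), with dots for the connective tissue spots, crosses for spots dropped for bile duct UMIs and a dashed line at the lowest share taken. The AEG-1-C75S dots lie lower and farther to the left, with a median of 4 choosing UMIs against 14.

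Depth differed in the same way. Total UMIs per spot had a lowest value of 2278, a median of 17581 and a highest of 39279 in the AEG-1-WT spots, near the median of 16811 in the other spots. The AEG-1-C75S spots had a lowest value of 3747, a median of 9570 and a highest of 39098, against a median of 19031 in the other spots. Under 10000 UMIs were 50.7% of the AEG-1-C75S spots and 17.3% of the others, compared with 5.88% and 1.24% in the AEG-1-WT section. On a shallow spot each UMI of the choosing genes moves the share by a large step, and the part of this in the AEG-1-C75S choice was not tested. For some results, values are therefore also given for the 33 AEG-1-C75S spots with at least 10000 UMIs.

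Of 11274 genes with at least 50 UMIs in the kept AEG-1-WT spots, 506 (4.49%) were called higher in the connective tissue spots and 38 (0.337%) lower. A gene was called when the ratio of its CPM to that of the other spots was at least 2-fold and its exact 95% interval did not reach equality. Intervals throughout cover counting error only. For AEG-1-C75S, 158 of 11160 genes (1.42%) were called higher and 62 (0.556%) lower. Both sections called 66 of 11053 genes (0.597%) higher and 0 (0%) lower. The median gene had a log2 ratio of 0.12 for AEG-1-WT and 0.06 for AEG-1-C75S.

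Matrix genes that did not choose the spots stood above the rest of the tissue in both sections, so the data do not go against the name connective tissue, although the AEG-1-C75S set was thin. Lum, Podn and Fmod, Col6a1, Col6a2, Col6a3 and Col16a1, and the elastic fiber genes Eln, Fbln1, Fbln2, Fbln5, Mfap4 and Loxl1 were called higher in both sections. Some AEG-1-C75S calls rest on few UMIs, with 5 for Fmod and Fbln1, 6 for Col16a1 and Loxl1, and 7 for Fbln2. The genes named are the called part of their lists. Called higher there were 3 of 7 proteoglycans, 4 of 10 collagens, 6 of 10 elastic fiber genes and 0 of 13 matrix turnover genes. Hepatocyte transcripts still made up much of every spot. A list of 8 hepatocyte genes including Alb and Apoa1 stood at 214140 CPM against 230350 CPM in the other AEG-1-WT spots, and at 230471 CPM against 246355 CPM in the AEG-1-C75S section.

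**Figure D2:**
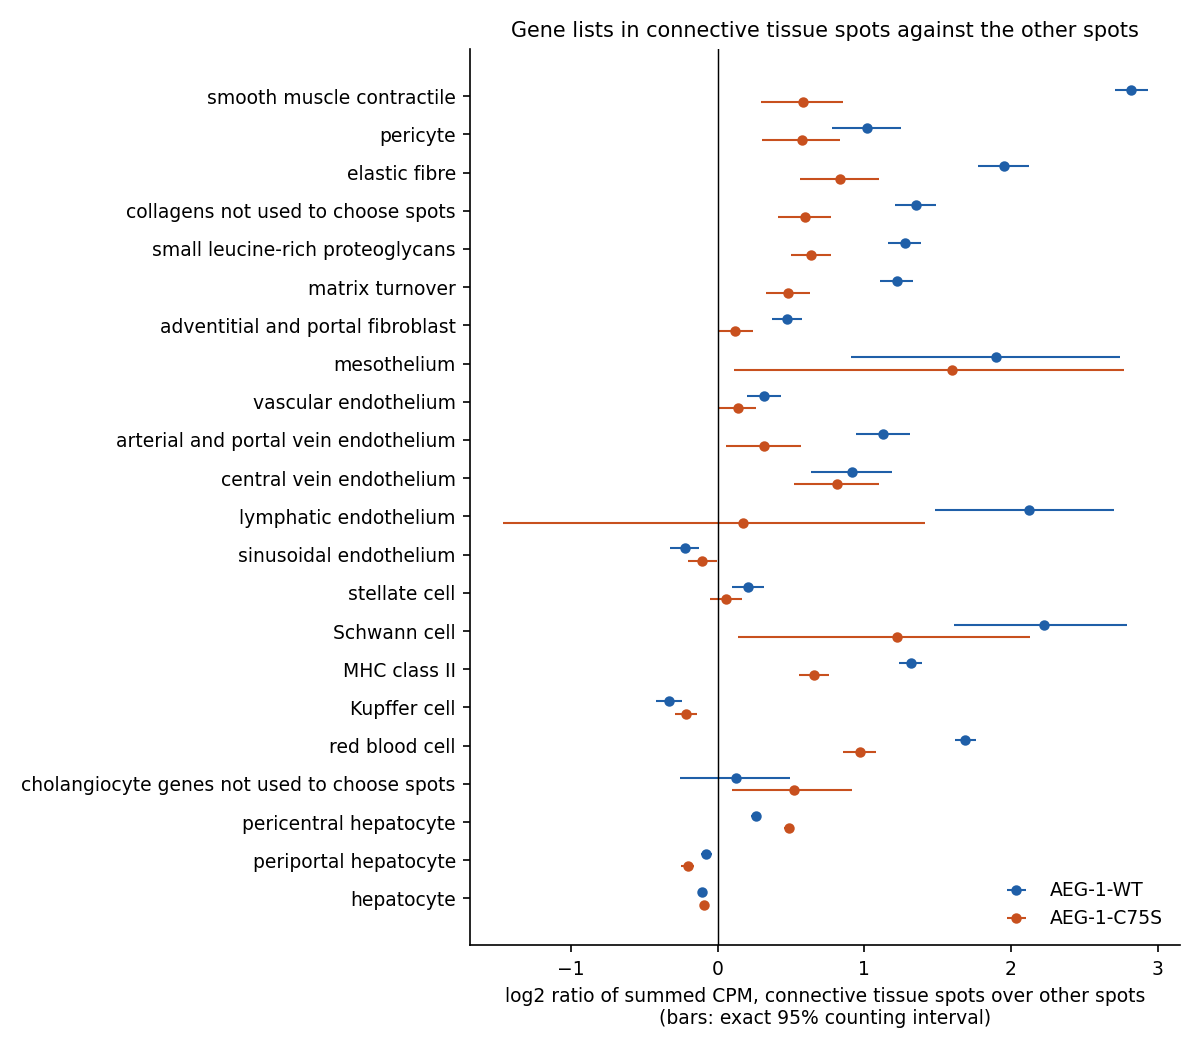
Log2 ratio of the summed CPM of each gene list in connective tissue spots over the other spots of the same section, for AEG-1-WT (blue) and AEG-1-C75S (orange), with exact 95% counting intervals as bars. The smooth muscle list lies at 2.82 in the AEG-1-WT section and at 0.58 in the AEG-1-C75S section, while the sinusoidal list lies just below 0 in both.

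After the drop for bile duct UMIs, connective tissue spots were over-represented at the pericentral end of the liver lobule and few in its middle. Each spot was placed on an axis from the log2 ratio of periportal to pericentral hepatocyte UMIs, and the axis was cut into 5 bins with equal numbers of the other spots. In the AEG-1-WT section, 19 of 51 spots (37.3%, exact 95% interval 24.1% to 51.9%) fell in the most pericentral bin and 13 (25.5%, 14.3% to 39.6%) in the most periportal. The AEG-1-C75S numbers were 24 of 67 (35.8%, 24.5% to 48.5%) and 18 (26.9%, 16.8% to 39.1%). The intervals of the pericentral bin lie above the equal share that the other spots have in each bin, and those of the periportal bin include it. The middle bin held 3 and 4 spots. None of the 64 and 41 spots dropped for bile duct UMIs was in either of the 2 most pericentral bins, so the drop itself moved the remaining spots toward the central vein. With no spot dropped, the share in the most pericentral bin was 15.7% and 22.2%. Among AEG-1-C75S spots with at least 10000 UMIs it was 54.5%.

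**Figure D3:**
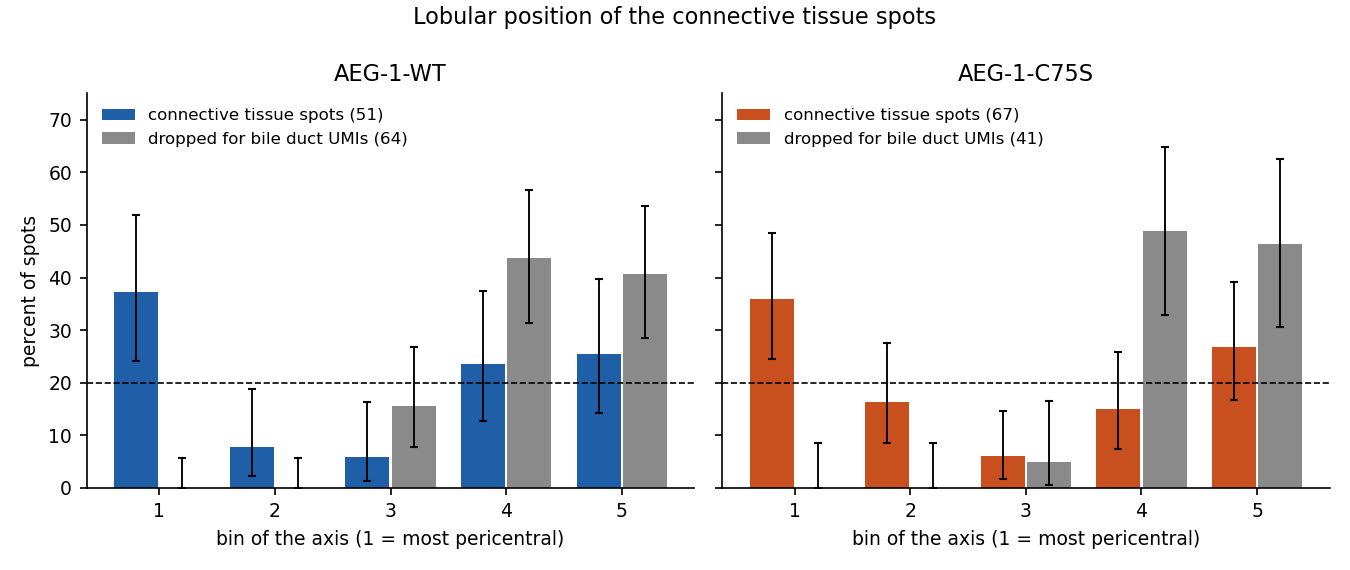
Percent of spots in each of 5 bins of the lobular axis, from 1 (most pericentral) to 5 (most periportal), for the connective tissue spots (colored bars) and the spots dropped for bile duct UMIs (gray bars) of the AEG-1-WT (left) and AEG-1-C75S (right) sections. Error bars are exact 95% binomial intervals that take each spot as independent, and the dashed line is the share of the other spots in each bin. After the drop, connective tissue spots exceed that share in bin 1, with 37.3% and 35.8%, and dropped spots lie in the middle and at the periportal end.

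For what follows, the 2 most pericentral bins are called the central side and the 2 most periportal the portal side, a split chosen after the positions had been seen. The AEG-1-WT section had 23 central and 25 portal spots, and the AEG-1-C75S section had 35 and 28. Median UMIs per spot were 16466 and 18445 in the AEG-1-WT section. The central AEG-1-C75S spots, with a median of 14397, were deeper than the portal ones, with 8599.

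Vessel wall smooth muscle set the AEG-1-WT spots apart more than any other list with over 100 UMIs. The 12 genes of the smooth muscle contractile apparatus summed to 814 CPM against 115 CPM in the other AEG-1-WT spots, a log2 ratio of 2.82 (2.71 to 2.93), and 8 of the 9 genes with enough UMIs were called higher. The AEG-1-C75S sum was 127 CPM against 85.1 CPM, a log2 ratio of 0.58 (0.30 to 0.85), with 2 of 6 called higher. UMIs of the list per spot ran from 0 through a median of 4 to 198 in the AEG-1-WT section and from 0 through a median of 1 to 9 in the AEG-1-C75S section. These ranges overlap at the low end, and only AEG-1-WT spots went above 9. Whether a spot covers fewer smooth muscle cells or cells with less RNA cannot be told apart in spot data.

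Acta2, smooth muscle actin, had 150 UMIs in the AEG-1-WT spots, with a median of 0 and a highest spot of 47, and a log2 ratio of 4.75 to the other spots. It had 2 UMIs in the AEG-1-C75S spots, too few to be called. At least 1 Acta2 UMI was seen on 22 of 51 AEG-1-WT spots (43.1%) and 5.67% of the others, and on 2 of 67 AEG-1-C75S spots (2.99%) and 1.53% of the others. With each spot thinned to 3000 UMIs, these shares were 16% and 1.29% in the AEG-1-WT section. The thinned AEG-1-C75S shares were 0 of 67, which allows a share of up to 4.48%, and 0.191%. Acta2 was thus above the level of the surrounding tissue in the AEG-1-WT section. In the AEG-1-C75S section its log2 ratio was 1.40 (-1.70 to 3.37), on too few UMIs to place it against the surrounding tissue.

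Tagln, the calponin-like protein transgelin, had 179 UMIs and a log2 ratio of 3.90 in the AEG-1-WT section, and 14 UMIs and 1.23 in the AEG-1-C75S section, where it was 1 of the pair of list genes called higher. The other was Myl9, the regulatory light chain of smooth muscle myosin, at 3.66 with 56 UMIs and 1.49 with 6. Myh11, the smooth muscle myosin heavy chain and the strictest marker of the list, had 60 UMIs in the AEG-1-WT spots and 1 in the AEG-1-C75S spots. Tpm2, a tropomyosin, reached 120 UMIs and 2.45 in the AEG-1-WT section, with 17 UMIs and 0.44 in the AEG-1-C75S section, where it was not called. Mylk, the kinase of the light chain, was the exception in the AEG-1-WT section at 0.98, just under the call, and stood at 0.20 in the AEG-1-C75S section. Genes of the thin and the thick filament were thus both among those called in the AEG-1-WT section.

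Serum response factor drives smooth muscle genes through an element called the CArG box, and the 250 bases before the start of transcription were read for it in RefSeq (GRCm38.p6). The box reads the same on both strands, and its central 6 letters are A or T. An exact box lay in 482 of 32851 promoters (1.47%). Of the 9 smooth muscle genes searched, 1 had it, namely Myl9, with CCTAATAAGG ending 151 bases before the start. Allowing 1 other letter in the middle 6, a change added after the exact search, 7.24% of all promoters and the promoters of Acta2 and Myl9 held at least 1 such near-match. Both promoters are shown because these are the 2 genes of the list with a box or a near-match. Tagln, Myh11 and Actg2 were not searched. The Acta2 promoter (chr19:34255374-34255623, minus strand) and the Myl9 promoter (chr2:156775214-156775463, plus strand) are written 5′ to 3′, with exact and near-match boxes in capitals.
Acta2: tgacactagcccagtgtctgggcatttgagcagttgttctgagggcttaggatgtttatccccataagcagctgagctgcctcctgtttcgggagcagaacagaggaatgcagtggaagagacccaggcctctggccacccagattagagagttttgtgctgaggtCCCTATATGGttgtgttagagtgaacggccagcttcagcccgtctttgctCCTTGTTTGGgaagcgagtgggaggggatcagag
Myl9: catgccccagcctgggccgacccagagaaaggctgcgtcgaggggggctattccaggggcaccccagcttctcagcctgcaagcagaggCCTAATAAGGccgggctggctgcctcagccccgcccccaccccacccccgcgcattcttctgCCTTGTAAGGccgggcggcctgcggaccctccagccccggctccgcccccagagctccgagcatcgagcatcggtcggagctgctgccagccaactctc

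The near-matches of Acta2, CCCTATATGG and CCTTGTTTGG, ended 74 and 24 bases before the start, and that of Myl9, CCTTGTAAGG, 89 bases before it. These are matches of letters only. The Visium counts do not show whether the boxes were bound.

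The muscle was concentrated in a few spots on the portal side. The AEG-1-WT section had 19 kept spots with 20 or more smooth muscle UMIs, of which 9 were connective tissue spots, all on the portal side, and 10 had been dropped for bile duct UMIs. The 9 spots held 198, 123, 56, 52, 50, 31, 24, 23 and 23 UMIs of the list. The richest had 8791 UMIs in all, with 47 of Acta2, 53 of Tagln and 11 of Myh11, and its hepatocyte genes came to 10.9% of its UMIs. It held 25.9% of the smooth muscle UMIs of the AEG-1-WT spots, and the 8 richest together 72.9%. Without the richest spot the list stood at 609 CPM, a log2 ratio of 2.40. No spot of the AEG-1-C75S section reached 20. Its highest count was 11 UMIs, on a dropped spot with 48756 UMIs in all.

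On the portal side of the AEG-1-WT section the smooth muscle list came to 1459 CPM, against 184 CPM on the central side, a log2 ratio of 2.98 (2.64 to 3.35). Acta2 had 143 portal and 5 central UMIs, Tagln 169 and 8, and Myh11 60 and 0. Smooth muscle on the central side was thus sparse, although it was above the 105 CPM of the other central spots. The AEG-1-C75S list stood at 98.0 CPM on the portal side and 142 CPM on the central side, a log2 ratio of -0.54 (-1.21 to 0.10) whose interval includes equality. Pericyte genes had log2 ratios to the other spots of 1.02 in the AEG-1-WT section, below smooth muscle, and 0.57 in the AEG-1-C75S section, close to the 0.58 of smooth muscle there. Of these, Notch3, a receptor that mural cells use to mature, was called higher in both sections. Pdgfrb, the receptor that recruits pericytes, had 25 UMIs and 2.20 in the AEG-1-WT section, and 6 UMIs and -0.04 in the AEG-1-C75S section. Abcc9 and Rgs5, also common to pericytes, were not called in either.

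**Figure D4:**
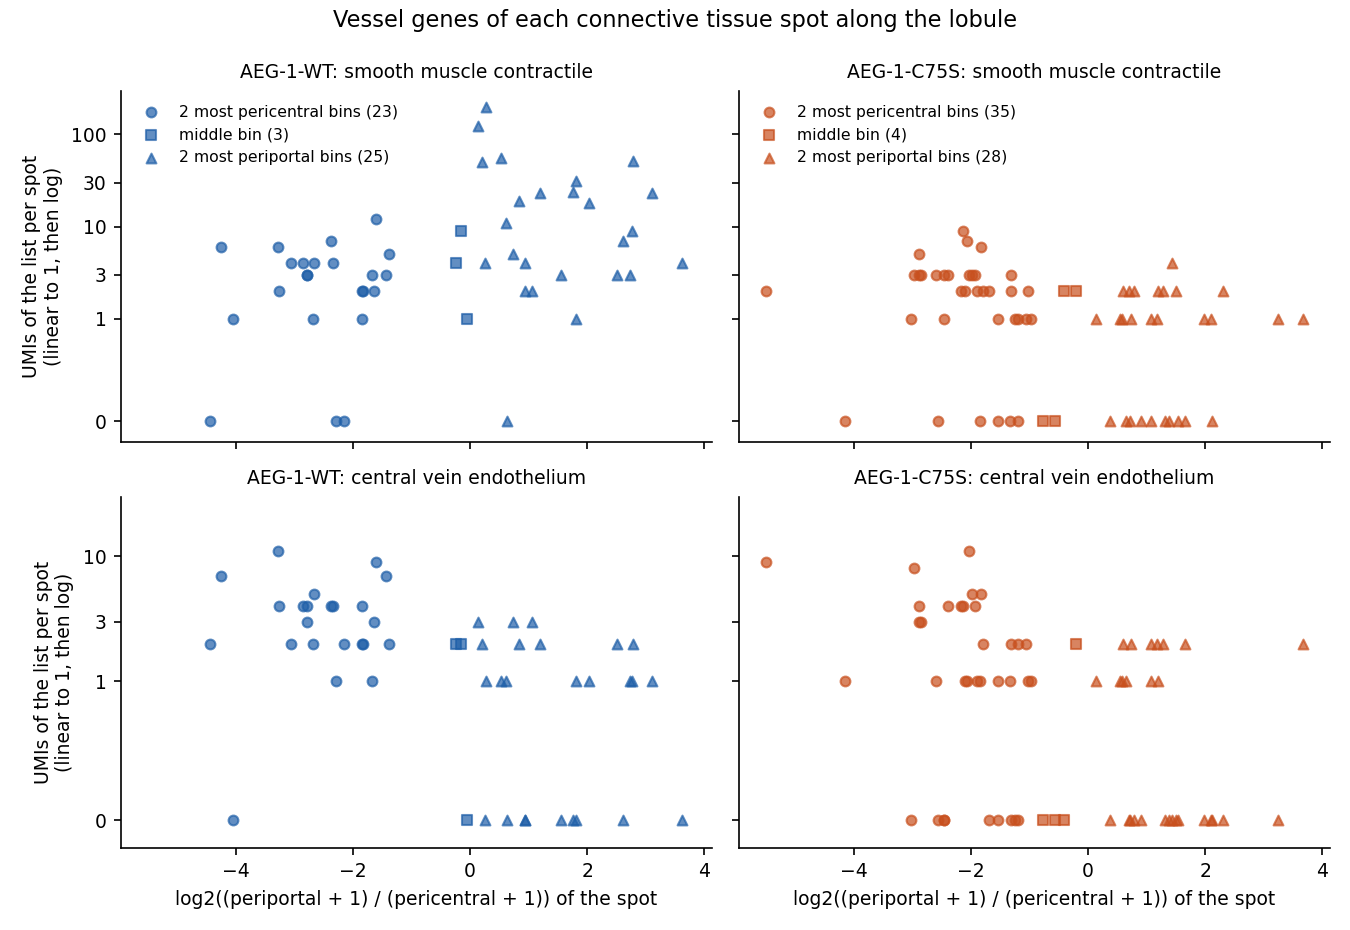
UMIs per connective tissue spot (linear to 1, then log) of the smooth muscle list (top) and the central vein endothelium list (bottom) against the log2 ratio of periportal to pericentral hepatocyte UMIs, for the AEG-1-WT section (left) and the AEG-1-C75S section (right); shapes give the side of the lobule. Spots with 20 or more smooth muscle UMIs lie only on the portal side of the AEG-1-WT section, while central vein endothelium UMIs reach 11 on the central side in both sections.

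Elastic fibers were the matrix group with the most members called in both sections. The list of 12 summed to 323 CPM against 83.4 CPM in the AEG-1-WT section, a log2 ratio of 1.95 (1.78 to 2.12), and to 136 CPM against 76.5 CPM in the AEG-1-C75S section, 0.83 (0.56 to 1.10). Of 10 genes with enough UMIs, 7 and 6 were called higher, and the 6 were among the 7. Eln, the elastic core protein, had 71 UMIs and a log2 ratio of 3.17 in the AEG-1-WT spots, and 15 UMIs and 1.77 in the AEG-1-C75S spots. Fbln5, which tethers elastin to cells, had 2.72 and 1.56, and Mfap4, a microfibril-associated glycoprotein, 2.95 and 2.60. Emilin1, at the elastin and microfibril interface, was not called in either (0.46 and 0.15). Eln was well above its surroundings on both sides of the AEG-1-WT lobule, with log2 ratios to other spots of the same side of 3.12 on the portal and 3.43 on the central side. The AEG-1-C75S ratios were 0.72 on 3 UMIs and 2.44 on 12 UMIs. The whole list stood at 445 CPM on the portal and 204 CPM on the central side of the AEG-1-WT section, with ratios to other spots of 2.23 and 1.51. In the AEG-1-C75S section these ratios were 0.19 (-0.43 to 0.74), an interval that includes equality, and 1.12 (0.80 to 1.43). Across AEG-1-WT spots the shares of smooth muscle and elastic fiber UMIs had a Spearman correlation of 0.65 over 51 spots, and 0.10 over 67 AEG-1-C75S spots. With the choosing genes, smooth muscle and elastic fiber had correlations of 0.58 and 0.64 in the AEG-1-WT spots, and 0.03 and 0.27 in the AEG-1-C75S spots. The part of the choice in the 0.65 was not tested. These are descriptions, since the spots of a section share a library and many hold few UMIs of a list.

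Among collagens that did not choose the spots, the type VI chains Col6a1, Col6a2 and Col6a3, which form beaded filaments around cells, and Col16a1 were called higher in both sections. The list of 12 collagens had log2 ratios of 1.35 and 0.59, with 7 and 4 of 10 called. Col6a3 stood at 2.66 with 61 UMIs and 2.03 with 23. Col14a1, a fibril-associated collagen, stood at 1.04 and 0.30, and only the former was called. The basement membrane chains Col4a1 and Col4a2 were not called in either section, at 0.86 and 0.46 for Col4a1 and 0.16 and 0.42 for Col4a2. The calls shared by the sections were thus mainly of type VI chains.

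Small leucine-rich proteoglycans, which bind collagen fibrils, had log2 ratios of 1.27 (1.16 to 1.39) and 0.64 (0.50 to 0.77), with 6 and 3 of 7 called. Dcn had 216 and 160 UMIs and ratios of 1.14 and 0.43, and Bgn 208 and 162 UMIs with 1.20 and 0.69. Lum, a regulator of fibril spacing, was called in both at 1.51 and 1.04. Dcn is also expressed by stellate cells throughout the lobule, and it was found at 104 CPM and 135 CPM in the other spots. In the AEG-1-WT section its level was similar at both ends, 218 CPM on the portal and 263 CPM on the central side.

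Portal and adventitial fibroblast genes summed to a log2 ratio of 0.47 (0.37 to 0.57) in the AEG-1-WT spots, with 6 of 9 called higher. In the AEG-1-C75S spots the list was at 0.12 (-0.00086 to 0.24), an interval that includes equality, with 1 of 8 called. Gsn, the actin-severing protein gelsolin, was called in both sections at 2.81 and 1.85, and Clec3b, a marker of adventitial fibroblasts, had 29 UMIs and 3.28 in the AEG-1-WT spots but 1 UMI in the AEG-1-C75S spots. Pcolce, which enhances procollagen processing, stood at 1.23 and 0.64. Serpinf1, which is expressed by hepatocytes too, held 533 of the 820 and 485 of the 585 UMIs of the list and stood at 0.04 and 0.01. Without it the list was at 1.96 (1.78 to 2.14) and 0.83 (0.52 to 1.11), so the low sums came from that gene. Of genes of matrix turnover, 8 of 13 were called higher in the AEG-1-WT section and 0 of 13 in the AEG-1-C75S section. The metalloproteinase inhibitors Timp2 and Timp3 had 2.17 and 1.55 in the former, and 0.82 and 0.87 in the latter. Sparc, a collagen-binding matricellular protein, stood at 0.96 and 0.36 and was called in neither.

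Of the 11 genes of the vascular endothelium list only Vwf was called higher, in both sections. Vwf, the clotting factor stored by the endothelium of veins and arteries and scarce in sinusoids, had 62 UMIs and a log2 ratio of 2.27 in the AEG-1-WT spots and 26 UMIs and 1.50 in the AEG-1-C75S spots. It was seen on 54.9% of AEG-1-WT spots and 16.8% of the others, or 16% and 3.28% after thinning to 3000 UMIs. The AEG-1-C75S shares were 22.4% and 16.1%, or 8.96% and 3.06% after thinning. Eng, Plvap, Egfl7 and Cdh5, shared by all liver endothelia, had log2 ratios between -0.15 and 0.29 in either section. The 11 sinusoidal genes in the tables, such as Clec4g, Dnase1l3, Stab1 and Fcgr2b, summed to -0.23 and -0.11, and 0 of 11 were called in any direction.

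The central vein list had a ratio of nearly the same size in both sections. It summed to 124 CPM against 65.4 CPM in the AEG-1-WT section (log2 ratio 0.92, 0.64 to 1.19) and to 118 CPM against 67.2 CPM in the AEG-1-C75S section (0.81, 0.52 to 1.10). Rspo3, the R-spondin that amplifies Wnt signaling around the central vein, had 39 and 41 UMIs and was called in both at 1.24 and 1.29. Cdh13, T-cadherin, was also called in both at 1.90 and 1.33. Kit and Wnt2, which extend from the central vein into nearby sinusoids, were not called, at 0.29 and 0.43 for Kit and 0.45 and -0.13 for Wnt2. Wnt9b, the other Wnt ligand of the central vein, had 2 and 1 UMIs.

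Most of these UMIs came from the central side, where the list stood at 209 CPM against 58.4 CPM on the portal side in the AEG-1-WT section and at 146 CPM against 70.0 CPM in the AEG-1-C75S section. Against other spots of the same side, it stood at log2 ratios of 1.17 (0.84 to 1.49) and 0.65 (0.31 to 0.97) on the central side, and at 0.54 (-0.08 to 1.09) and 0.65 (-0.07 to 1.29) on the portal side. Rspo3 stood at 78.7 CPM on the central and 13.0 CPM on the portal side of the AEG-1-WT section, and at 62.2 CPM and 21.0 CPM in the AEG-1-C75S section. Vwf stood at 91.0 CPM on the central and 47.6 CPM on the portal side of the AEG-1-WT section. In the AEG-1-C75S section it stood at 33.7 CPM and 21.0 CPM, where the interval of the difference includes equality. The central connective tissue spots were also the more pericentral ones, with the pericentral hepatocyte list 0.44 and 0.30 above that of other central spots on the log2 scale, and its part in the endothelial values was not tested. The pericentral hepatocyte genes Slc1a2, Slc13a3 and Rhbg were called higher in both sections, but genes of that list place spots on the axis. Slc1a2, a glutamate transporter, stood at 1033 CPM in the central connective tissue spots against 324 CPM in other central AEG-1-WT spots, and at 638 CPM against 263 CPM in the AEG-1-C75S section.

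Arterial and portal vein endothelial genes showed a difference in the AEG-1-WT section, with a log2 ratio of 1.13 (0.94 to 1.31) and 7 of 11 called, and little in the AEG-1-C75S section, 0.31 (0.05 to 0.56) with 0 of 10 called. Ltbp4, a TGF-beta binding protein of elastic vessels, had 128 UMIs at 1.27 and 53 at 0.27. The gap junction gene Gja4 had 1.03 and 0.66, and Jag1, a Notch ligand, 1.58 and 0.84. Sema3g, an arterial semaphorin, had 15 UMIs in the AEG-1-WT spots, 14 of them on the portal side, and 0 in the AEG-1-C75S spots. The list stood at 357 CPM on the portal and 182 CPM on the central side of the AEG-1-WT section. Lymphatic genes followed the same side, with 24 portal and 1 central UMIs in the AEG-1-WT section and 5 UMIs in all in the AEG-1-C75S section. Mmrn1, a lymphatic multimerin, held 18 of the AEG-1-WT UMIs at a log2 ratio of 2.99.

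Mesothelium left few counts. The list of 11 genes held 12 UMIs on 9 AEG-1-WT spots and 6 UMIs on 6 AEG-1-C75S spots. Msln, Upk3b, Upk1b, Muc16, Wt1, Bnc1 and Rspo1 were at 0 in both sets, and Lrrn4 had 1 UMI in the AEG-1-C75S spots. These genes were hardly counted on the other spots either, where Msln had 11 and 3 UMIs and Wt1 had 0, so their 0 says little about the connective tissue spots. Gpm6a, which is not restricted to mesothelium, held 10 and 4 of the UMIs. The list's log2 ratios, 1.89 (0.91 to 2.74) and 1.60 (0.11 to 2.77), thus rest mostly on this gene. Capsule mesothelium could thus be neither shown nor dismissed on these spots, and whether any of them lies on the capsule is not known without coordinates.

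Genes of antigen presentation, nerve and blood were counted as well. MHC class II genes, expressed by antigen-presenting cells, stood at 1432 CPM against 575 CPM in the AEG-1-WT section, with all 4 called higher, and at 933 CPM against 592 CPM in the AEG-1-C75S section, with none of 4 called. Cd74, the invariant chain, had 757 UMIs at 1.18 and 495 at 0.58, and H2-Aa 257 at 1.38 and 153 at 0.79. They were higher on the portal side, 1868 CPM against 1018 CPM in the AEG-1-WT section and 1253 CPM against 778 CPM in the AEG-1-C75S section. Of the other myeloid genes, Ccr2 and Cd209a, of monocytes and dendritic cells, were the 2 of 5 called in the AEG-1-WT section, at 2.24 and 3.02 on 16 and 14 UMIs. That list summed to 1.77 (1.32 to 2.20) there and to 0.23 (-0.44 to 0.82) in the AEG-1-C75S spots, with 0 of 4 called. Kupffer cell genes, led by Cd5l and Clec4f, stood at -0.33 and -0.22, with 0 of 11 called. The MHC class II list and the list of the resident sinusoidal macrophage thus went different ways.

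Schwann cell genes, of the nerves of the portal tract, held 28 UMIs in the AEG-1-WT spots, 22 of them portal, and 10 in the AEG-1-C75S spots. Scn7a, a sodium channel of non-myelinating Schwann cells, had 13 UMIs at 3.43 in the former and 3 in the latter. Stellate cell genes, at 0.21 and 0.06, were close to the median gene, and of 10 only Cygb was called, in the AEG-1-WT section. Bile duct genes outside the choice had log2 ratios of 0.13 (-0.26 to 0.49) and 0.52 (0.10 to 0.91), and Bicc1 was the single one called, in both. The AEG-1-C75S value was 1.02 (0.48 to 1.51) on the portal and -0.02 (-0.81 to 0.67) on the central side, each against other spots of that side, and -0.11 (-0.75 to 0.45) in the 33 deeper spots. Red blood cell genes stood at 1926 CPM against 597 CPM in the AEG-1-WT section and 796 CPM against 407 CPM in the AEG-1-C75S section. A single central AEG-1-WT spot held 895 of the 1808 UMIs, and without it the sum was 998 CPM, a log2 ratio of 0.74. The richest AEG-1-C75S spot, on the portal side, held 150 of 701, and without it the log2 ratio was 0.63. In the 33 deeper AEG-1-C75S spots it was 0.31 (0.14 to 0.47).

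Of the 66 genes called higher in both sections, 25 belonged to a list and 41 to none. Several of the 41 are matrix proteins or their modifiers, among them Tnxb, Lama2, Lama5, Adamts2, Smoc2 and Fstl1. Vegfd and Ccbe1, a growth factor of lymphatic vessels and the protein that helps activate its family, and Tcf21, a transcription factor of fibroblasts, were also there. They were named after their values were seen. By the smaller of both ratios, the genes with at least 50 UMIs in each set that stood farthest above the other spots began with Slc1a2 (1.50 and 1.55), Gas6 (1.22 and 1.06), the globin gene Hbb-bs (1.71 and 1.02) and Igfbp3 (1.82 and 0.96). Gas6 is the ligand of the TAM receptors and Igfbp3 a carrier of insulin-like growth factors. Next came Hba-a2 (1.62 and 0.95), Gstm2 (0.94 and 0.89), Oat (0.86 and 1.17) and Vim (1.95 and 0.80), of which Oat and the glutathione transferases are pericentral. H2-Aa, H2-Ab1 (1.43 and 0.78), Gstm3 (0.76 and 1.19), H2-Eb1 (1.89 and 0.73), Bgn and Prelp (0.68 and 0.62) followed. The last of the 20 were Npr2 (0.59 and 0.73), Cd74, Pam (1.05 and 0.50), Mprip (0.48 and 0.52), Gulo (0.47 and 0.78) and Slc43a3 (0.67 and 0.46). The places of both globin genes rest on single spots. One AEG-1-WT spot held 615 of the 1186 Hbb-bs UMIs and 239 of the 518 of Hba-a2, and one AEG-1-C75S spot held 100 of 470 and 45 of 205. Without the richest spot of each section Hbb-bs was at 0.69 in both, and Hba-a2 at 0.77 and 0.61, below the 2-fold needed for a call. The order thus mixed matrix, antigen presentation and pericentral metabolism, and blood through those spots.

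The spots dropped for bile duct UMIs passed the same threshold on the choosing genes, and lay on the portal side or in the middle of the lobule. The choice itself separates them by bile duct, so their comparison is a description. Against them the connective tissue spots had more central vein endothelium, at log2 ratios of 1.02 in the AEG-1-WT and 1.23 in the AEG-1-C75S section, and less elastic fiber, at -0.61 and -0.81. MHC class II genes were at -0.74 and -0.99. Collagens were at -0.61 and -0.45, matrix turnover at -0.57 and -0.53, and arterial and portal vein endothelium at -0.60 and -0.69. The leucine-rich proteoglycans were at -0.52 and -0.19 (-0.38 to 0.0024). On few UMIs, lymphatic genes were at -1.52 and -0.64 (-2.63 to 1.24), and Schwann cell genes at -1.10 and -1.22. None of these lists was thus particular to the connective tissue spots. Kupffer cell genes were at 0.04 and 0.27. Smooth muscle stood at 0.37 (0.23 to 0.52) in the AEG-1-WT and -0.62 (-0.98 to -0.26) in the AEG-1-C75S section. Of these, the AEG-1-WT value rests on the spot with 198 UMIs of the list, without which it was -0.05 (-0.21 to 0.11), an interval that includes equality. Smooth muscle genes of the AEG-1-C75S section were denser on its dropped spots, and without its richest connective tissue spot the value was -0.69.

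Between the genotypes, the summed smooth muscle and elastic fiber genes of the connective tissue spots were lower in the AEG-1-C75S section. The difference came mainly through the portal side, and the collagen, proteoglycan and matrix turnover lists differed less. Of 7588 genes with at least 20 UMIs over both sets, 278 (3.66%) were called lower and 71 (0.936%) higher in the AEG-1-C75S spots, around a median gene at -0.10. The smooth muscle list had a log2 ratio, AEG-1-C75S to AEG-1-WT, of -2.68 (-2.98 to -2.39), beside -0.44 in the other spots, with 8 of 9 genes called lower. Leaving out the richest spot of each section gave -2.33, and keeping spots with at least 10000 UMIs gave -2.29. The elastic fiber list stood at -1.24 (-1.56 to -0.93) beside -0.12, with 5 of 9 lower. Collagens were at -0.65 with 3 of 8 called lower, the leucine-rich proteoglycans at -0.45 with 3 of 7, and matrix turnover genes at -0.71 with 6 of 10, beside 0.10, 0.19 and 0.03 in the other spots. Single genes such as Col4a2 (0.51) and Efemp1 (0.73), both uncalled, had positive values. The portal and adventitial fibroblast list was at -0.39 (-0.55 to -0.24) beside -0.04, with 3 of 5 called lower. Without Serpinf1 it stood at 306 CPM in the AEG-1-WT and 114 CPM in the AEG-1-C75S connective tissue spots. In the other spots it then stood at 78.4 CPM and 64.1 CPM, so the full sum understates the difference of this list. The pericyte list, at -0.26 (-0.61 to 0.09) with 2 of 6 lower, and the vascular endothelium list, at -0.13 (-0.30 to 0.04) with 1 of 9, had intervals that include equality.

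The sections differ in how their spots divide between the sides, so each side was also compared by itself, which was decided with the data already in view. Portal smooth muscle genes stood at 1459 CPM in the AEG-1-WT and 98.0 CPM in the AEG-1-C75S section, a log2 ratio of -3.90 (-4.50 to -3.35), and the elastic fiber list at -2.29 (-2.94 to -1.70). On the central side both were nearer to equality, at -0.38 (-0.85 to 0.10) and -0.35 (-0.80 to 0.10). The leucine-rich proteoglycans were at -0.83 on the portal and -0.18 (-0.43 to 0.07) on the central side. Portal ratios of other lists went both ways. Sinusoidal endothelium was at 0.46 (0.23 to 0.69), Kupffer cell genes at 0.58 (0.40 to 0.76) and hepatocyte genes at 0.17. Negative values included lymphatic endothelium at -1.89, arterial and portal vein endothelium at -1.09, matrix turnover at -1.04 and pericyte genes at -0.99. Collagens were at -0.78, MHC class II genes at -0.58, stromal chemokine and cytokine genes at -0.50 and fibroblast genes at -0.46. The difference in the vessel wall and proteoglycan lists thus came mostly from portal spots, where the median AEG-1-WT spot had 18445 UMIs in all and the median AEG-1-C75S spot 8599. Over all connective tissue spots the choosing genes themselves differed in the same direction, at -1.41 beside -0.90, and so did depth, as given above. Their part in the ratios of other genes was not tested.

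Arterial and portal vein endothelium stood at -0.89 beside -0.08, with 1 of 4 called lower. On few UMIs, lymphatic genes were at -2.29 (-4.02 to -0.88) beside -0.33 and Schwann cell genes at -1.39 (-2.60 to -0.31) beside -0.38. Other myeloid genes were at -0.97 (-1.75 to -0.22) beside 0.58. T and NK cell genes, at 0.44 (-0.11 to 0.99), and B and plasma cell genes, at 0.89 (-0.08 to 1.91), had intervals that include equality. Red blood cell genes were at -1.27 beside -0.55, with 4 of 4 called lower, but without the richest spot of each section the list was at -0.66 (-0.82 to -0.51), and with spots of at least 10000 UMIs at -1.96. It was at 1.09 on the portal and -2.52 on the central side, where the AEG-1-WT spot with 895 UMIs lies. Over both sides, central vein endothelium was at -0.06 (-0.46 to 0.33) beside 0.04, with 0 of 5 called. On the central side, which holds most of its UMIs, it was at -0.52 (-0.98 to -0.07), and on the portal side at 0.26 (-0.65 to 1.15). Sinusoidal endothelium was at 0.15 beside 0.03. MHC class II genes stood at -0.62 beside 0.04, and H2-Eb1 was the only one of 4 called. Kupffer cell genes were at 0.47 beside 0.35. Mtdh, for which the tables give a gene count and no codon, had 68 and 61 UMIs, a log2 ratio of -0.06 (-0.59 to 0.46).

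Of genes with at least 100 UMIs over both sets, those whose ratio fell farthest below that of the other spots were Acta2 (-6.14 beside -2.80), Tagln (-3.58 beside -0.92), Flna (-2.14 beside 0.06), Tpm2 (-2.73 beside -0.71), Tpm1 (-1.65 beside 0.26), Csrp1 (-1.83 beside -0.05), Crip1 (-1.42 beside 0.19) and Ahnak (-1.83 beside -0.33), all called lower. Flna cross-links actin, Tpm1 lines thin filaments and Csrp1 is a LIM protein of smooth muscle, and none of these was on the smooth muscle list. Below that minimum, Myh11 (-5.81 beside -1.39, on 60 and 1 UMIs) lay farther down than Acta2. At the other end stood Ctso (0.74 beside -0.02), Ppp2r5e (0.33 beside -0.43), Dnajc22, March2, Actr10, Rnf4, Usf2 and Plcxd2, of which 0 were called. Both ends were chosen by a value close to the one that is called, so these calls are a description. Spots with 20 or more smooth muscle UMIs were found in the AEG-1-WT section and not in the AEG-1-C75S section, and with 1 section each, the vessels that a section crosses and the genotype cannot be told apart.

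**Figure D5:**
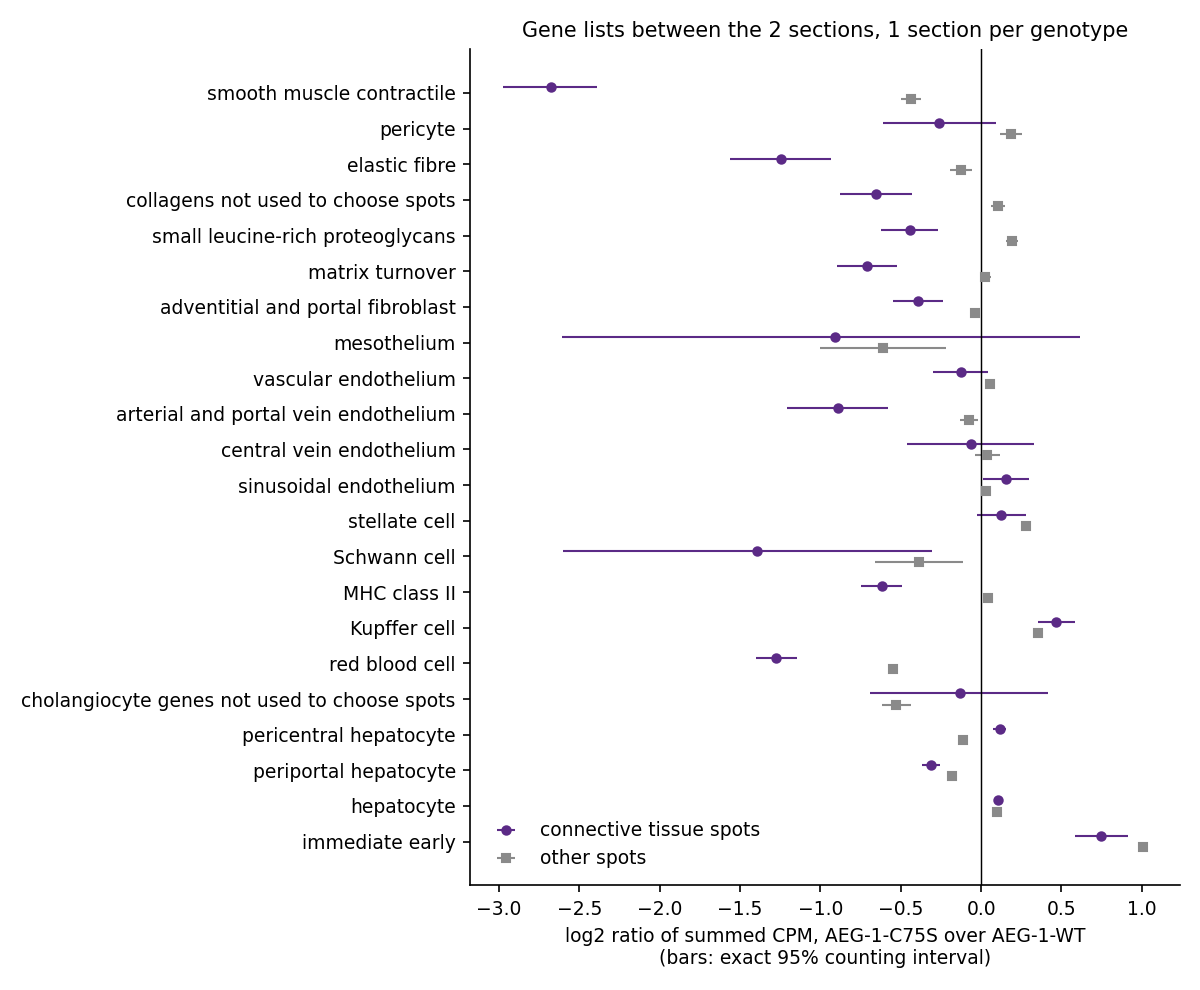
Log2 ratio of the summed CPM of each gene list in AEG-1-C75S relative to AEG-1-WT, for connective tissue spots (purple dots) and the other spots (gray squares), with exact 95% counting intervals as bars and 1 section per genotype. The smooth muscle list lies at -2.68 in the connective tissue spots against -0.44 in the other spots, and central vein endothelium at -0.06 against 0.04.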

How the data were processed

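The authors made the tables of UMI counts from Visium FFPE libraries, and the deposited counts are whole and not normalized. The submitters' processing notes name Space Ranger 2.0.1, Seurat 4.3.0 and mm10. Each table lists 19465 genes on the spots under tissue, and 0 columns of other samples were present. For 11 repeated gene symbols, counts were taken from the first entry.

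Counts were summed over spots and scaled to 1000000 UMIs (CPM). Log2 ratios carry exact binomial (Clopper-Pearson) 95% intervals of the pair of sums, and shares of spots carry exact binomial ones. For shares with a UMI, spots were also thinned to 3000 UMIs, leaving out shallower ones (1 AEG-1-WT connective tissue spot). A share of 0 is given with the limit that 3 counts allow. The sums rest on 938833 UMIs in the AEG-1-WT and 880376 in the AEG-1-C75S connective tissue spots, so a gene under 20 UMIs has a wide interval. Groups came from the labelled genotype. With 1 section per genotype, and spots not being replicates, no test was made. Computation used python 3.11.15, numpy 2.4.6, scipy 1.17.1, pandas 2.3.3 and matplotlib 3.10.9, and the ratio and call code was checked on simulated data. No doublet calling was applied to spots.

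The spots, the 29 gene lists and the thresholds were chosen with earlier results of these data known. Named genes were the 2 to 4 of each list with the most UMIs in the connective tissue spots, the 20 with the highest smaller ratio and at least 50 UMIs in each section, the 8 at each end of the genotype ratio relative to the other spots with at least 100 UMIs, and Mtdh. Any other gene in the text was named after its values were seen. Of 269 list genes, 262 are in the tables. Alternatives were the share of spots taken, the bile duct cutoff, the choosing genes, the weighting, the scaling, the minimum of UMIs, the upper limit, depth-matched other spots and the zone lists, and, added after seeing the data, spots with at least 5 UMIs of the choosing genes, spots with at least 10000 UMIs, sets without the most muscular spot or the spot richest in a list or gene, each side of the lobule by itself, and the fibroblast list without Serpinf1.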

Additional observations from a re-analysis of the deposited data

How the results depend on the processing

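Over the alternatives, 450 of the recomputed list ratios stayed within counting error of the reported value, 110 moved by more, toward or away from 0, with the sign kept, and 4 reversed. Within counting error, 6 more changed sign, the genotype ratio of central vein endothelium in 5 (0.022 to 0.18) and of vascular endothelium in 1 (0.0068). Of the 4 reversals, sinusoidal endothelium in the AEG-1-C75S section was 0.0099 with the top 10% of spots, the pericentral list was -0.40 (AEG-1-WT) and -0.059 (AEG-1-C75S) with no spot dropped for bile duct UMIs, and its genotype ratio was -0.11 as a mean of per-spot CPM. The 66 genes called higher in both sections became 24 with the top 10% of spots, 313 with no spot dropped and 34 with a minimum of 200 UMIs. The 0 called lower in both became 2 with the top 3% and 2 with per-spot means. With the higher minimum, 16 in place of 71 genes were called higher and 30 in place of 278 lower in the AEG-1-C75S spots. These were of 2385 genes tested in place of 7588. With no spot dropped, 471 of 9855 were called lower. The share in the most pericentral bin was 15.7% (AEG-1-WT) and 22.2% (AEG-1-C75S) with no spot dropped, and in the AEG-1-C75S section 53.1% with at least 5 choosing UMIs and 54.5% with at least 10000 UMIs. The cause of these changes was not tested. The genotype ratio of the smooth muscle list ranged from -3.34 to -1.88 over 15 alternatives. Matching the other spots on total UMIs has no bearing on that ratio and gave no value for it. No paired analysis was possible because each genotype has 1 section, and none could be left out. The summed depth of the sets was close, at 938833 and 880376 UMIs, and genes under 20 UMIs in a set have wide intervals. Depth per spot limits the choice itself, with medians of 14 and 4 choosing UMIs.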

Other observations

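The T and NK cell list of 8 genes had log2 ratios to the other spots of 0.63 (0.20 to 1.03) in the AEG-1-WT and 0.81 (0.43 to 1.17) in the AEG-1-C75S section, on few UMIs. Of its genes, Ccl5, a chemokine, had 22 UMIs at 0.48 in the AEG-1-WT section and 34 UMIs at 0.93 in the AEG-1-C75S section. Of its 6 genes with enough UMIs, the T cell receptor subunit Cd3e was called higher in the AEG-1-WT section (1.30 on 8 UMIs) and Cd3d in the AEG-1-C75S section (1.26 on 8 UMIs). B and plasma cell genes were not called in either section (0 of 5 in each), and Cd79b had 5 and 10 UMIs. The 4 mast cell genes were at 0 UMIs in both sets of spots. Of the adipocyte genes, Fabp4, which capillary endothelium also expresses, had 34 and 20 UMIs at 0.75 and 0.28, and Adipoq, Plin1 and Cfd were at 0.

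The chemokine Cxcl12 had 442 and 271 UMIs at log2 ratios of 0.37 and 0.05, and 0 of 7 stromal chemokine and cytokine genes were called in either section. Immediate early genes stood at 0.24 and -0.02 against the other spots, where Klf4 was the only one called, in the AEG-1-C75S section. In the AEG-1-C75S over AEG-1-WT ratio 4 of 9 were called higher, among them Egr1 (1.08 beside 1.54 in the other spots) and Jun (1.29 beside 1.30), while Junb (0.68 beside 0.74) and Zfp36 (0.46 beside 0.59) were not.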
